A study of Homo sapiens with 6 samples.

Results

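The miR-200 family is the epithelial microRNA (miRNA) family made from 5 hairpins in 2 genomic clusters, and its members were taken by name: hsa-miR-200b-3p, hsa-miR-200b-5p, hsa-miR-200a-3p, hsa-miR-200a-5p and hsa-miR-429 from chromosome 1, and hsa-miR-200c-3p, hsa-miR-200c-5p, hsa-miR-141-3p and hsa-miR-141-5p from chromosome 12. These are 9 of the 2588 mature miRNAs listed in the count table, and all 9 were among the 800 with enough reads to be tested. The rule that names them uses family, arm and cluster and no measured value, and it was set with earlier results of these data known. The members were compared by cluster, by seed and by hairpin arm, between small RNA libraries made before and after immunoprecipitation of RNA carrying 7-methylguanosine (m7G).

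The libraries came from Caco-2, an established colorectal adenocarcinoma cell line of epithelial character, grown in Eagle's Minimum Essential Medium with 20% FBS. The 3 m7G-RIP libraries hold RNA that was decapped, heat-denatured, bound by the anti-m7G antibody MBL RN017M and eluted with 7-methyl-GTP. The 3 input libraries hold a sample of the same kind of RNA kept back before the antibody step. The labels number the libraries of each group from 1 to 3 but do not say whether they came from separate cultures, so p-values measure the spread between these libraries, which may be technical.

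As background, a miRNA hairpin yields a 5p and a 3p mature strand, and the strand loaded into the silencing complex recognises target mRNAs mainly through its seed, bases 2 to 8. The 3p strands of the miR-200 family repress ZEB1 and ZEB2, transcription factors that silence E-cadherin, and the family is known for holding cells in the epithelial state and for its loss in epithelial-to-mesenchymal transition. The 5p strands are often called passenger strands.

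The mature sequences are shown because the members differ by few bases while their values differ widely. RefSeq (GRCh38.p14) held 8 of the 9. They are written 5′ to 3′ with the seed in capitals, grouped by shared seed, starting with the 3p strands that carry the seed AAUACUG.
hsa-miR-200b-3p: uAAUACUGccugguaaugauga
hsa-miR-200c-3p: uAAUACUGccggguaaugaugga
hsa-miR-429: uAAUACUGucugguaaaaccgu
The remaining 3p strands have the seed AACACUG.
hsa-miR-200a-3p: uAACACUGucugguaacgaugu
hsa-miR-141-3p: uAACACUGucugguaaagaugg
The 5p strands of the chromosome 1 hairpins share the seed AUCUUAC. The 5p strand of the miR-200c hairpin has GUCUUAC, which it shares with hsa-miR-550a-3p among the tested miRNAs with a RefSeq sequence.
hsa-miR-200b-5p: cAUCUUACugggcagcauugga
hsa-miR-200a-5p: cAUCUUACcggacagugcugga
hsa-miR-200c-5p: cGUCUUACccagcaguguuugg

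With positions counted from 1 at the 5′ end and the base of the first-named miRNA written first, hsa-miR-200b-3p and hsa-miR-200c-3p differed by U11G and A22G, and hsa-miR-200c-3p was 1 base longer. A read of either that ended before base 22 could be told from the other by U11G alone. The study's methods give aligner settings that allow a mismatch and several loci per read, while the labels name another aligner. How reads with several possible loci were then counted is not given in the sources used here. The AACACUG pair, hsa-miR-200a-3p and hsa-miR-141-3p, differed by C17A and U22G. Between the seed groups, hsa-miR-200a-3p and hsa-miR-200b-3p differed by C4U, U9C, C17U and U22A, with C4U inside the seed. The 5p strands hsa-miR-200a-5p and hsa-miR-200b-5p differed outside the seed only, by C9U, A12G, U16C, G17A and C18U.

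In GRCh38 with GENCODE 44, all 5 hairpins lie on the plus strand. MIR200B (chr1:1167104-1167198), MIR200A (chr1:1167863-1167952) and MIR429 (chr1:1169005-1169087) span 1984 bp, overlap no annotated gene, and lie 4793 bp from TTLL10, the nearest protein-coding gene. MIR200C (chr12:6963699-6963766) and MIR141 (chr12:6964097-6964191) span 493 bp inside an intron of MIR200CHG, a long non-coding host RNA on the same strand. Their nearest protein-coding genes are PHB2, at 1136 bp on the other strand, and PTPN6, at 2383 bp.

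Sequencing depth differed between the groups, with 16466178 to 19628046 counts per input library and 1654102 to 3105129 per m7G-RIP library. Levels are given as CPM, the counts scaled to a common library size, after TMM, a scaling that takes most miRNAs as unchanged between libraries. A single count was therefore worth at most 0.0873 CPM in the input and 0.368 CPM in m7G-RIP. In the input, epithelial and intestinal markers summed higher than those of other cell types, on CPM of total counts. The 6 outside the family summed to 50799 to 52058 per library. Most of this was miR-192-5p, at 36129 to 38735, followed by miR-194-5p at 10313 to 11261 and miR-215-5p at 2187 to 2551. Lower values were those of miR-205-5p at 696 to 728, miR-375 at 128 to 137 and miR-203a-3p at 0. The 5 stromal markers summed to 140.6 in the median library (138.5 in the lowest) and the 4 blood markers to 5.70 to 6.68, with miR-214-3p and miR-223-3p at 0. The muscle markers summed to 449 to 523 and the endothelial miR-126-3p lay at 514 to 547, both above miR-375. In bulk RNA, fewer cells of a type and less RNA per cell cannot be told apart.

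The family divided in the m7G immunoprecipitate. The strands hsa-miR-200c-3p and hsa-miR-200b-5p were enriched and the other 7 members were depleted. Calls were made in edgeR, by its quasi-likelihood test, at a p-value under 0.05 after Benjamini-Hochberg adjustment over the 800 miRNAs. Over all tested miRNAs, 40.1% were enriched and 38.1% were depleted. The median log2 enrichment of the 9 members was -2.25, beside 0.16 over all 800. Values ran from 1.00 for hsa-miR-200b-5p to -5.33 for hsa-miR-141-3p, a range of 6.33 on the log2 scale within the family.

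**Figure D1:**
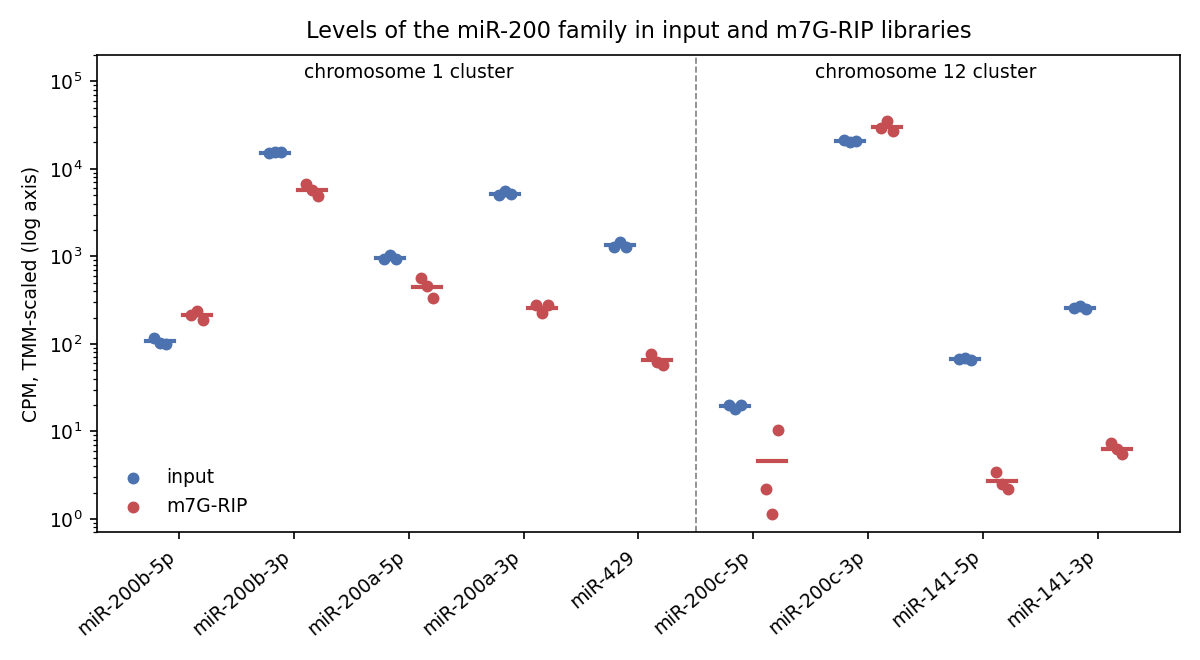
Level of each member in TMM-scaled CPM on a log axis, with a point for every library and a line at the mean of 3 input (blue) or 3 m7G-RIP (red) libraries. Input and m7G-RIP points do not overlap for any of the 9 members, with m7G-RIP above input only for miR-200b-5p and miR-200c-3p. Lack of overlap was common: over all tested miRNAs, m7G-RIP lay wholly above input in 41.4% and wholly below in 40.8%. The 3 m7G-RIP points of miR-200c-5p spread from 1.13 to 10.3.

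Of the 3p strands, which in this family carry most of the counts, hsa-miR-200c-3p was the most abundant and the only one enriched. Its CPM were 21461, 20107 and 20900 in the input and 28915, 34971 and 27344 in m7G-RIP. The lowest m7G-RIP library lay above the highest input library, and the miRNA moved from rank 8 to rank 7 of the 800 by mean level. Its log2 enrichment was 0.55 (SE 0.14, edgeR adjusted p = 0.00311). The call rested on m7G-RIP replicate 2, without which the log2 enrichment was 0.28 (edgeR adjusted p = 0.148), and on the scaling described below.

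Its paralog hsa-miR-200b-3p, the second most abundant member and a carrier of the same seed, went the other way. It had 15088, 15526 and 15360 CPM in the input and 6665, 5754 and 4863 CPM in m7G-RIP. All 3 m7G-RIP libraries were below all 3 input libraries, and the log2 enrichment was -1.41 (SE 0.15, edgeR adjusted p = 1.46e-06).

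The other 3p strands lost far more. From the chromosome 1 cluster, hsa-miR-200a-3p had 4993, 5545 and 5087 CPM in the input and 281, 222 and 274 CPM in m7G-RIP. Its log2 enrichment of -4.33 (SE 0.16, edgeR adjusted p = 9.37e-11) took it from rank 26 to rank 106. From the same cluster, hsa-miR-429, the only product listed for its hairpin, had 1269, 1453 and 1287 CPM in the input and 75.7, 61.5 and 57.8 CPM in m7G-RIP, a log2 enrichment of -4.36 (SE 0.17, edgeR adjusted p = 1.35e-10). These 2 differ in seed and were depleted to a like degree, while hsa-miR-429 and hsa-miR-200b-3p share a seed and were not.

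The lowest value of the family belonged to hsa-miR-141-3p, the 3p strand processed from the hairpin next to miR-200c. It had 260, 274 and 247 CPM in the input and 7.28, 6.30 and 5.53 CPM in m7G-RIP, where the libraries held 30, 28 and 15 counts. Its log2 enrichment was -5.33 (SE 0.20, edgeR adjusted p = 1.19e-10), and its mean level fell from rank 135 to rank 424.

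The 5p strands were also divided. The level of hsa-miR-200b-5p rose, from 118, 101 and 100.3 CPM in the input to 212, 237 and 188 CPM in m7G-RIP. Each m7G-RIP library exceeded every input library, with a log2 enrichment of 1.00 (SE 0.16, edgeR adjusted p = 9.74e-05). By contrast, hsa-miR-200a-5p, which has the same seed, had 938, 1030 and 930 CPM in the input and 561, 456 and 336 CPM in m7G-RIP, all below the input, with a log2 enrichment of -1.10 (SE 0.18, edgeR adjusted p = 9.37e-05).

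Both 5p strands of the chromosome 12 cluster were rare. The input libraries held 794, 891 and 741 counts of hsa-miR-141-5p and the m7G-RIP libraries 14, 11 and 6, or 67.4 ± 2.58 CPM against 2.70 ± 0.623 CPM (mean ± SD, n = 3). The groups were far apart, with a log2 enrichment of -4.61 (SE 0.27, edgeR adjusted p = 3.96e-09). The rarest member, hsa-miR-200c-5p, had 237, 231 and 231 counts in the input and 9, 5 and 28 counts in m7G-RIP. Its level in m7G-RIP replicate 3, 10.3 CPM, stood above the 2.18 and 1.13 CPM of the other 2 but below every input library, at 18.1 to 20.2 CPM. The log2 enrichment was -2.25 (SE 0.54, edgeR adjusted p = 0.00183), and -3.65 without that library.

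Neither cluster, arm nor seed separated the enriched members from the depleted ones. The chromosome 1 cluster had 1 enriched and 4 depleted members (median log2 enrichment -1.41), and the chromosome 12 cluster 1 and 3 (median -3.43). Among the 3p strands with miR-429, 1 was enriched and 4 were depleted (median -4.33), and among the 5p strands 1 and 3 (median -1.67). The seed AAUACUG had 1 enriched and 2 depleted members, spread over 4.90 on the log2 scale, and both members with AACACUG were depleted, 1.01 apart. Seeds could be read for the 714 tested miRNAs with a RefSeq sequence, so other tested miRNAs are missing from their groups. Across the 19 seeds held by at least 3 of these 714, the median spread was 2.64, and that of AAUACUG ranked 4th. Members with enriched and depleted calls were present together in 5 of these 19 seed groups.

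The zero of the enrichment scale depended on the scaling, which moves all miRNAs together. Against TMM, the log2 enrichments of the 800 miRNAs shifted by a median of 1.09 when libraries were scaled to total counts. The median shift was 0.82 under upper-quartile factors and -0.34 under DESeq2 size factors. The calls over all tested miRNAs, 321 enriched and 305 depleted with TMM, were 442 and 198 by total counts, 418 and 227 by the upper quartile, and 281 and 342 by DESeq2 size factors. No member changed sign under these scalings, and hsa-miR-200b-5p stayed enriched and hsa-miR-200b-3p, hsa-miR-200a-3p, hsa-miR-429, hsa-miR-141-3p and hsa-miR-141-5p stayed depleted by the same threshold. Each of the other members lost its call under some scaling. With DESeq2 size factors hsa-miR-200c-3p had a log2 enrichment of 0.20 (edgeR adjusted p = 0.179). For hsa-miR-200a-5p the value was -0.02 by total counts (edgeR adjusted p = 0.908) and -0.27 by the upper quartile (edgeR adjusted p = 0.229). For hsa-miR-200c-5p it was -1.09 with total counts (edgeR adjusted p = 0.145).

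**Figure D2:**
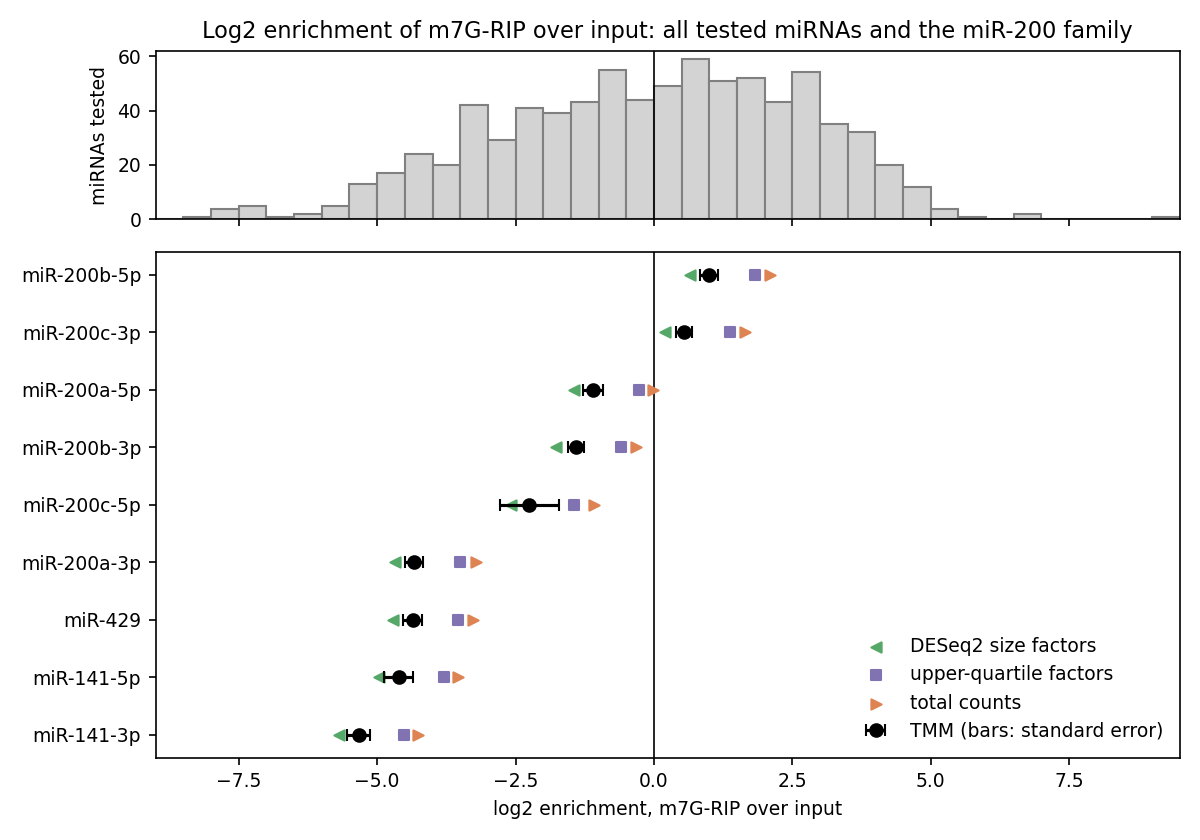
Top, number of tested miRNAs by log2 enrichment of m7G-RIP over input (TMM). Bottom, log2 enrichment of each member with TMM (black, bars are the standard error) and with 3 other scalings, which shift all members together: miR-200c-3p and miR-200b-5p stay right of 0, and miR-200a-5p reaches -0.02 with total counts.

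Ratios between members within a library do not depend on the scaling, and 5 pairs were compared. In every pair the 3 m7G-RIP ratios lay outside the 3 input ratios. With 3 libraries against 3, a two-sided exact permutation test cannot give less than p = 0.10, and it gave 0.10 for each of the 5 pairs, also after Benjamini-Hochberg adjustment. The size of each change is therefore set against the spread of the libraries.

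Between neighbours of the same cluster, the largest change was that of hsa-miR-200c-3p over hsa-miR-141-3p, whose hairpins lie 330 bp apart. The log2 ratio was 6.32 ± 0.11 in the input and 12.19 ± 0.24 in m7G-RIP (mean ± SD, n = 3), or 80.1-fold against 4671-fold. On chromosome 1, where MIR200B and MIR200A lie 664 bp apart, hsa-miR-200b-3p exceeded hsa-miR-200a-3p 2.95-fold in the input and 22.1-fold in m7G-RIP, with log2 ratios of 1.56 ± 0.06 and 4.47 ± 0.29. Strands with the same seed from that cluster diverged as much: hsa-miR-200b-3p over hsa-miR-429 went from 3.52 ± 0.09 to 6.46 ± 0.08, an increase of 2.94 beside 2.91 for the previous pair.

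Across the clusters, paralogs with the same seed also changed in proportion. The ratio of hsa-miR-200b-3p to hsa-miR-200c-3p went from 0.736 to 0.189 (log2 -0.44 ± 0.07 to -2.40 ± 0.25), so that the more abundant strand of this pair gained on the other. The ratio of hsa-miR-200a-3p to hsa-miR-141-3p changed least, from 20.0-fold to 39.9-fold (log2 4.32 ± 0.05 to 5.32 ± 0.24). These are the 2 pairs of closest sequence, each 90.9% identical over 22 bases.

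**Figure D3:**
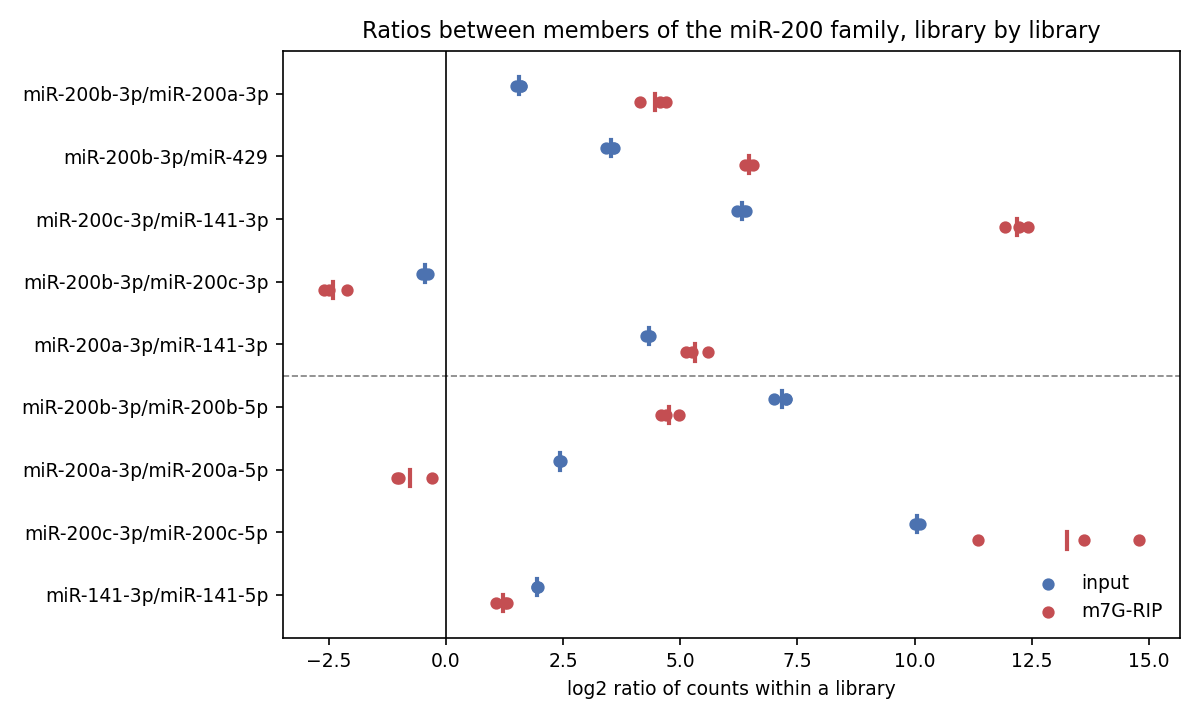
Log2 ratio of counts between members within each library, with a point per library and a line at each mean, for 5 pairs of members (above the dashed line) and the 4 hairpins with both arms listed (below, 3p over 5p). Input (blue) and m7G-RIP (red) points do not overlap in any row, and miR-200a-3p/miR-200a-5p crosses 0, the level of equal counts.

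The balance of the 2 arms changed at all 4 hairpins with both arms listed, by limma on the log2 ratio of 3p to 5p counts with adjusted p under 0.05 over 194 hairpins. Of those 194, 70.1% were called, 42 towards 3p and 94 towards 5p, so nothing particular to the family is read from 4 of 4. The miR-200a hairpin exchanged its dominant arm. The log2 ratio of hsa-miR-200a-3p to hsa-miR-200a-5p was 2.41, 2.43 and 2.45 in the input and -0.998, -1.04 and -0.290 in m7G-RIP. The 3p strand led in all 3 input libraries and the 5p strand in all 3 m7G-RIP libraries, with a mean of 5.39-fold against 0.584-fold (change -3.21, SE 0.20, limma adjusted p = 1.13e-05).

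At the miR-200b hairpin, the 3p strand stayed dominant but by less. Its ratio to hsa-miR-200b-5p went from 144-fold to 27.0-fold, a log2 change of -2.42 (SE 0.14, limma adjusted p = 1.13e-05), the 3p strand being depleted and the 5p strand enriched. The miR-200c hairpin went in the opposite direction, from 1067-fold to 9733-fold in favour of 3p. That log2 change of 3.19 (SE 0.81, limma adjusted p = 0.0117) rested on the few hsa-miR-200c-5p counts named above, and its SD between m7G-RIP libraries was 1.75. It was 4.14 without m7G-RIP replicate 3 and 2.42 without m7G-RIP replicate 2. At the miR-141 hairpin, whose arms were both depleted, the change was small, from 1.95 to 1.21 in log2 (-0.74, SE 0.20, limma adjusted p = 0.0157). That call was lost without any of the input libraries (limma adjusted p 0.0828 to 0.0883 with each left out) and with the replicate number as a block (limma adjusted p = 0.0501). Over the 194 hairpins the median change was -0.84, with quartiles of -2.80 and 0.81, so that miR-200a lay below and miR-200c above the quartiles.

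The family's total depended on the scaling. As a share of total counts, the family made up 3.02% ± 0.129 of all miRNA counts in the input and 5.43% ± 0.533 in m7G-RIP (mean ± SD, n = 3), without overlap. On the TMM scale, which the enrichment calls used, the 9 members summed to 44112 ± 110 CPM in the input and to 37172 ± 4333 CPM in m7G-RIP, all 3 m7G-RIP libraries lying below the input. The direction thus turned between total counts and TMM, between which the log2 enrichments shifted by a median of 1.09. Shares within the family do not depend on the scaling, and there hsa-miR-200c-3p went from 47.2% of the counts to 81.7%. The share of hsa-miR-200b-3p went from 34.7% to 15.5%, that of hsa-miR-200a-3p from 11.8% to 0.709%, and that of hsa-miR-429 from 3.03% to 0.176%.

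**Figure D4:**
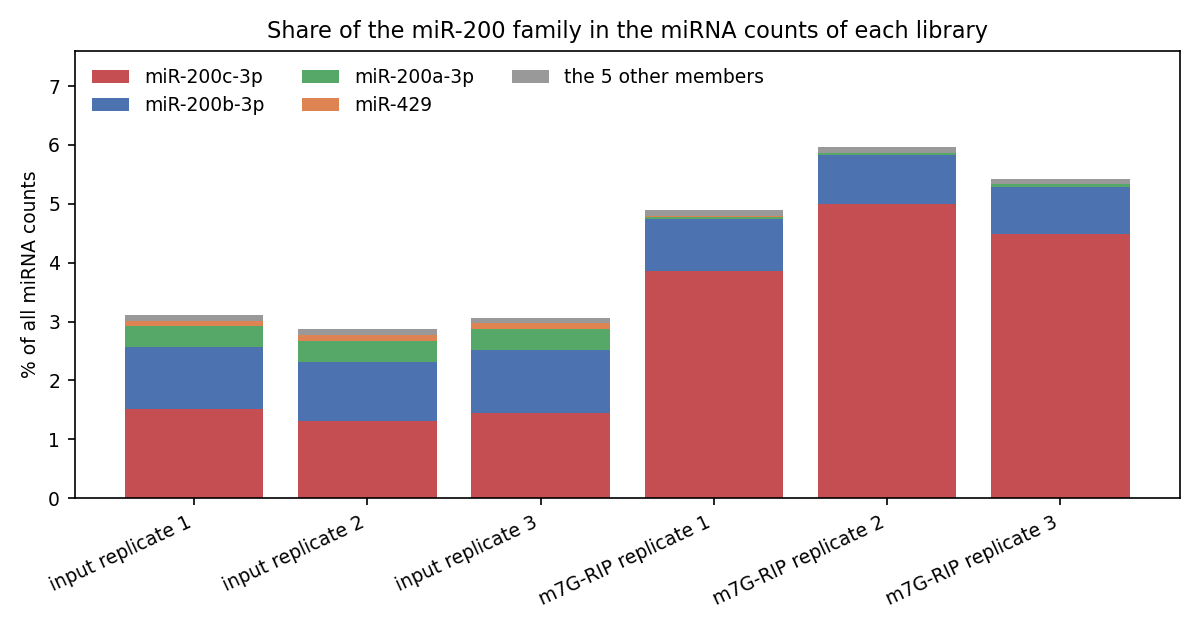
Stacked share of the family in all miRNA counts of each library, in percent, by member. The totals average 3.02% in the 3 input and 5.43% in the 3 m7G-RIP libraries on total counts (on the TMM scale the family sum was lower in m7G-RIP), and miR-200c-3p (red) fills most of each m7G-RIP bar while miR-200a-3p (green) nearly disappears.

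Sums over a cluster or an arm therefore followed the most abundant strand. Summed counts of the chromosome 1 cluster over those of chromosome 12 were near equal in the input, at a log2 ratio of 0.12 ± 0.09, and fell to -2.18 ± 0.25 in m7G-RIP. When each member was given the same weight, by the mean of log2 counts, the change was 0.96 in the other direction, in place of -2.29. The 3p over 5p sums likewise went from 5.21 to 5.78, and by 0.56 against -1.14 with equal weights. Only the seed sums moved alike both ways: AAUACUG over AACACUG went from 2.78 ± 0.09 to 7.09 ± 0.34, a change of 4.31 by counts and 3.08 with equal weights. These values describe the family and carry no test.

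Because the antibody recognises a modified G, the G content of the mature strands is given as a description. The members hold 4 to 7 G. The enriched strands hsa-miR-200c-3p and hsa-miR-200b-5p each hold a run of 3 G, written GGG and read on the mature strand only, while the other 6 members with a sequence hold GG and no GGG. U11G, the first of the substitutions between hsa-miR-200b-3p and hsa-miR-200c-3p, turns the GG of the former into the GGG of the latter. In the 5p pair, A12G does the same between hsa-miR-200a-5p and hsa-miR-200b-5p. A match of letters does not locate a modified base.

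Among the 714 tested miRNAs with a RefSeq sequence, 36.6% hold GGG, with a median log2 enrichment of 2.08; 65.1% of them were enriched and 19.5% depleted. The 37.5% that hold GG without GGG had a median of -0.97, and the 25.9% without GG had a median of -0.65. The GGG class was also rarer in the input, with a median of 2.97 CPM against 8.99 CPM for the GG class. Strands with 9 or more G, 84.9% of them enriched, had a median log2 enrichment of 2.84 and a median input level of 1.28 CPM. The parts of abundance and of the number of G in the difference between the classes were not tested. At the G numbers of the enriched members, most strands were not enriched: with 6 G, 10.4% were enriched and 55.8% depleted, and with 7 G, 28.6% and 54.5%. Among strands with 6 G, the 24 with GGG had a median of -0.41 (5 enriched, 11 depleted) and the 53 without it -1.62 (3 enriched, 32 depleted). With 7 G, the 30 with GGG had a median of -0.37 (11 enriched, 13 depleted) and the 47 without it -1.76 (11 enriched, 29 depleted). These classes include the members of the family themselves. Members with the same number of G differed in enrichment. Whether the run of G, the number of G or abundance sets the members apart was not tested. The 4 members that hold 6 G run from 1.00 for hsa-miR-200b-5p through -1.10 for hsa-miR-200a-5p and -2.25 for hsa-miR-200c-5p to -5.33 for hsa-miR-141-3p. The median of all 77 strands with 6 G was -0.98, and that of the 73 outside the family was -0.77. Medians did not rise steadily with the number of G: the 119 strands with 0 to 3 G had 0.26, above -1.71 with 4 G and -1.44 with 5 G. Across the 714 miRNAs, the percentage of G and log2 enrichment had Pearson's r = 0.50 and Spearman's rho = 0.50, and across the 8 members r = 0.55 and rho = 0.52. These points share libraries, and the members share much of their sequence.

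**Figure D5:**
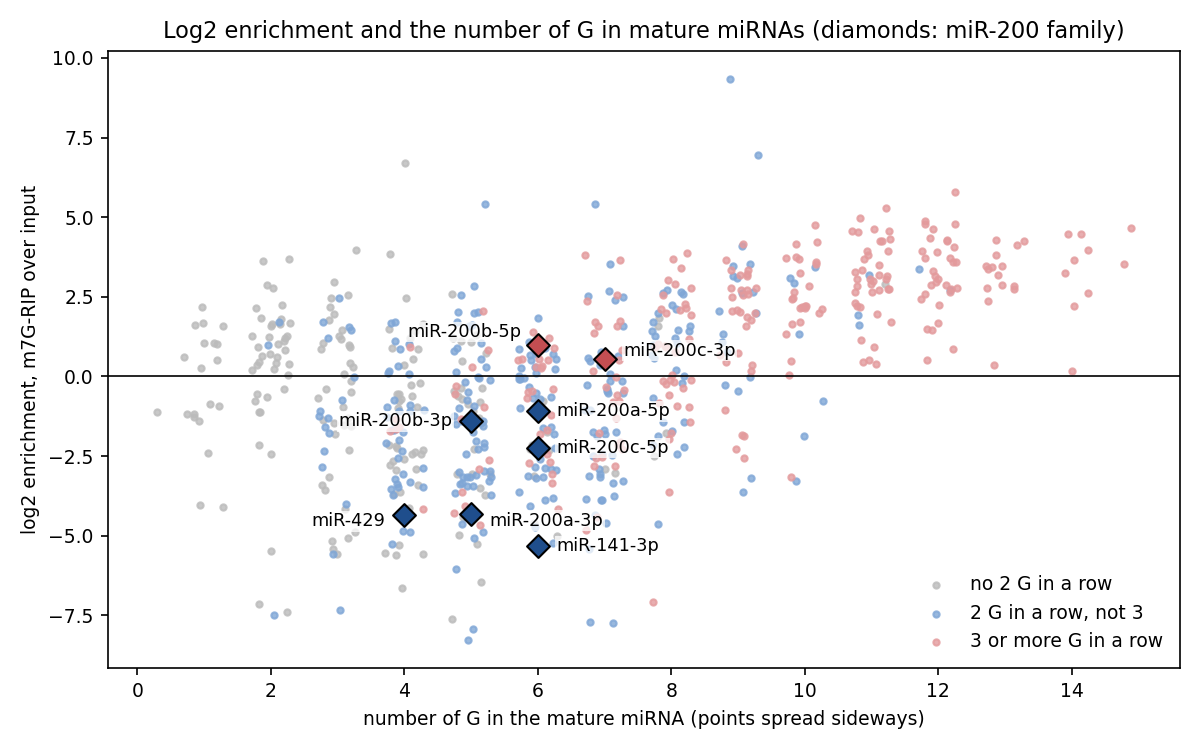
Log2 enrichment of m7G-RIP over input against the number of G in the mature strand for 714 tested miRNAs, coloured by their longest run of G, with the 8 members that have a sequence as diamonds. The 2 members with 3 G in a row (red diamonds) lie above 0 and the other 6 (blue diamonds) below, from -1.10 to -5.33.

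The miRNAs with the profiles nearest to the leading members were found by the Euclidean distance of log2 CPM over the 6 libraries. Nearest to hsa-miR-200c-3p were hsa-let-7f-5p (distance 0.90, log2 enrichment 0.63), hsa-let-7a-5p (1.61 and 1.71) and hsa-miR-182-5p (1.66 and 1.60). The let-7 strands are close in sequence, so their counts may share reads. Nearest to hsa-miR-200a-3p were hsa-miR-30b-5p (distance 0.99, log2 enrichment -4.66), hsa-miR-9-5p (1.65 and -3.15) and hsa-miR-181a-5p (1.69 and -3.81). The distance takes in level and enrichment together, and says nothing of function.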

How the data were processed

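The authors deposited raw read counts per mature miRNA and library, whole numbers with no normalization. Per the labels, Trimmomatic, Bowtie2 and featureCounts were used with GRCh38, while the study's methods name STAR with settings for small RNA. Replicates were not pooled.

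From these counts, edgeR 4.0.16 in R 4.3.3 (filterByExpr with a minimum count of 10 and a minimum total of 15, TMM, quasi-likelihood test, Benjamini-Hochberg) was fitted to all miRNAs and 6 libraries, in place of the study's DESeq2 test, which was run as an alternative (DESeq2 1.42.0). A standard error is the log2 enrichment divided by the square root of F. Arm ratios were tested with limma 3.58.1 on log2 counts with a pseudocount of 0.5, which pair ratios share. Pair tests used scipy 1.17.1 in Python 3.11.15. Tested on simulated data, edgeR recovered 70.1% of log2 changes of 1 and 97.9% of 2 among 771 miRNAs, with 6 of 168 calls false. For arm ratios over 194 hairpins, 33.3% and 93.3% were recovered, with 2 of 40 calls false. The simulation fixed the dispersion at 0.05 and set changes in both directions. It changed 97 tested miRNAs by 1 and 96 by 2, and 30 hairpins by each size. The real data had more calls, with 40.1% of miRNAs enriched, 38.1% depleted and 70.1% of arm ratios changed. The simulated rates may therefore not hold for them.

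Libraries were grouped by the sample type in their labels. The named miRNAs were the 9 members and, for the most abundant 3p strand of each of the 2 seeds, the 3 nearest profiles. Members and lists were chosen with earlier results of these data known. Alternatives covered scaling, filters, pseudocount, threshold, replicate block and each library left out. The m7G-RIP libraries, 1654102 to 3105129 counts deep, limit rare strands most, and reads carry no molecular identifiers.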

Additional observations from a re-analysis of the deposited data

How the results depend on the processing

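The number of enriched members was 2 as reported and 1 with DESeq2 size factors, with the DESeq2 Wald test and with no filter on low counts, where hsa-miR-200c-3p had a log2 enrichment of 0.20 (DESeq2 adjusted p = 0.174) and 0.24 (edgeR adjusted p = 0.245) in the last 2 of these. It was 1 to 2 with each library left out, and 1 without m7G-RIP replicate 2. The number of depleted members was 7 with each library left out, 5 with total counts, 6 with upper-quartile factors and 5 with at least 10 counts in every library, where hsa-miR-200c-5p and hsa-miR-141-5p were not tested. With the replicate block, 2 members were enriched and 7 depleted, and the only call that changed was the arm ratio of miR-141. Same-numbered libraries did not deviate together (correlations -0.021, -0.013 and 0.037). With 3 libraries per group, this cannot decide whether they share RNA, which the labels do not say. Hairpins with a changed arm ratio numbered 2 when every arm had at least 10 counts in every library, which left 2 of the 4 tested, and 3 to 4 with each library left out. With the mean of log2 values, the change in the cluster ratio was 0.96 in place of -2.29, that of 3p over 5p was -1.14 in place of 0.56, and that of the seed ratio was 3.08 in place of 4.31. Of the other values, 117 of 124 member enrichments, 30 of 34 arm ratios and 40 of 40 pair ratios kept direction and call, and none reversed. The pair tests gave exact permutation p of 0.10 to 0.25, which their size does not let pass the threshold.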
